A study of Homo sapiens with 12 samples.

Results

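Calcium enters a cancer cell through membrane channels that open to stretch, to chemical cues or to the emptying of internal stores, and calcium-activated potassium channels shape the voltage that draws it in. Messenger RNA of 10 genes of this machinery was measured in MDA-MB-231, an established line of human triple-negative breast cancer cells with no engineered allele (labelled WT), after 24 h in medium of 3 acidities. The genes are PIEZO1, TRPM7, TRPC1, TRPV4, ORAI1, ORAI3, STIM1, STIM2, KCNN4 and KCNMA1. They were picked by gene symbol as PIEZO, TRP, ORAI, STIM and calcium-activated potassium channel genes, and they are 10 of the 60664 genes in the count table. All 10 passed the filter on low counts, which left 17544 genes to test.

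The groups were pH 7.4, pH 6.9 and pH 6.4, with 4 libraries each, 12 in all, numbered as repeats 1 to 4 in the labels. Per the labels' protocols every flask was seeded with 500000 cells and grown at pH 7.4 to 70 to 80% confluence before the medium was exchanged, so the pH 7.4 cells also went through a wash and a change of medium. The sample labels give pH 6.9 for the intermediate medium and the protocol gives 6.7. The label's value is used here as a name. The labels do not say whether repeats were separate cultures, so p-values measure only the spread between these libraries, which may be technical. The model is 1 cell line grown without other cells.

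PIEZO1 forms a channel that opens when the membrane is stretched, and TRPM7, TRPC1 and TRPV4 are cation channels of the TRP family. In store-operated entry, the STIM proteins sense the calcium level inside the endoplasmic reticulum and, when it falls, gate ORAI pores in the plasma membrane. KCNN4 and KCNMA1 are potassium channels that open on a rise of cytosolic calcium. Their outward current keeps the membrane voltage negative, which favours calcium entry.

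Library totals ran from 21060767 to 50643233 counts. All 8 markers of a basal, mesenchymal-like breast line (VIM, CD44, EGFR, AXL, FN1, ITGB1, MSN and CAV1) averaged at least 1 CPM (counts per-million). Of 8 luminal genes, ESR1, PGR and FOXA1 averaged under 0.1 CPM, and 5 averaged at least 1 CPM. These 5 were KRT19 at 271, EPCAM at 19.4, GATA3 at 13.5, ERBB3 at 11.2 and CDH1 at 1.03 CPM. The pH 7.4 library of repeat 1 stood apart in the rare genes. It detected 17841 genes, the fewest, and listed 40.2% of 3921 low tested genes at 0, against 0 to 6.25% in the other libraries. The libraries also parted by repeat number, with repeats 1 and 2 on one side and repeats 3 and 4 on the other. The labels give no date or batch for this split. CPM values below are scaled with TMM factors, and each fold change comes with the adjusted p of edgeR's quasi-likelihood test over all genes tested. A gene is called at an adjusted p under 0.05.

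In pH 6.4 against pH 7.4, 2 of the 10 genes were called: STIM2 fell and KCNN4 rose. The background was 30.3% of all genes tested called in that comparison, 15.6% higher and 14.7% lower, and 2 of 10 is near it. The median log2 change of the 10 genes was 0.05, beside -0.000833 over all genes tested, and their median absolute change was 0.27 beside 0.34. At pH 6.9 against pH 7.4 none of the 10 was called, where 0.724% of all genes were, 0.313% higher and 0.410% lower. None of the 10 had an unadjusted p under 0.05 in that comparison, and DESeq2 and limma voom also called none, where they called 559 and 138 genes over all, beside 127 with edgeR. At pH 6.4 against pH 6.9 STIM2 alone was called, lower, where 17.0% of all genes were called, 8.83% higher and 8.20% lower. These are bulk libraries, so fewer cells with a transcript and less transcript per cell cannot be told apart.

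**Figure D1:**
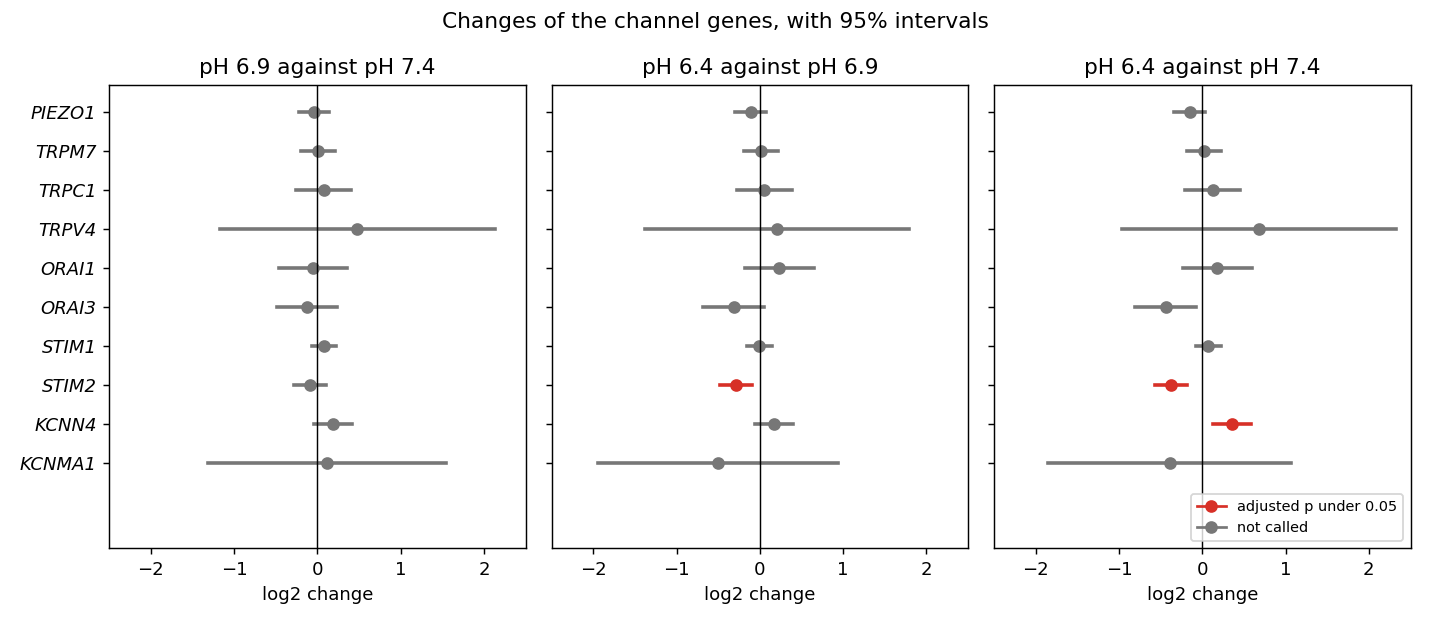
Log2 change of the 10 channel genes in each of the 3 comparisons of media (x axis, log2 units), with bars for 95% intervals and red for an adjusted p under 0.05. STIM2 is red in both comparisons with pH 6.4 and KCNN4 in pH 6.4 against pH 7.4, and the bars of TRPV4 and KCNMA1 are the widest.

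STIM2, the endoplasmic reticulum calcium sensor that responds to small drops of the store, was lower at pH 6.4. The gene lies on the plus strand at chr4:26857678-27025381 (GRCh38). Its level in repeats 1 to 4 was 26.8, 31.1, 27.7 and 31.2 CPM at pH 7.4. At pH 6.9 the same repeats held 28.2, 28.1, 25.6 and 27.6 CPM. At pH 6.4 they held 24.2, 22.9, 21.6 and 21.4 CPM. Every pH 6.4 library was below every library of the other media, while pH 6.9 and pH 7.4 overlapped. The mean was 29.2 ± 2.29 CPM at pH 7.4 (SD, n = 4), 27.4 ± 1.19 CPM at pH 6.9 (SD, n = 4) and 22.5 ± 1.29 CPM at pH 6.4 (SD, n = 4). STIM2 fell by 0.37 on the log2 scale between pH 7.4 and pH 6.4 (SE 0.0901, edgeR adjusted p = 0.00634), so that pH 6.4 held 0.771 times the level of pH 7.4. Against pH 6.9 it fell by 0.28 (SE 0.0900, edgeR adjusted p = 0.0451). Between pH 6.9 and pH 7.4 its log2 change was -0.09, with a 95% interval from -0.28 to 0.10.

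The call against pH 7.4 held when each library was left out in turn, with log2 changes from -0.41 to -0.34. Within repeats 1 and 2 the change was -0.29 (edgeR adjusted p = 0.172) and within repeats 3 and 4 it was -0.44 (edgeR adjusted p = 0.0593), each with 2 libraries a medium and neither called. The call against pH 6.9 rested on all libraries being present: 11 of the 12 fits that left one out lost it, and only the fit without the pH 7.4 library of repeat 1 kept it. In those fits the change stayed between -0.32 and -0.26.

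STIM1, the more abundant sensor and the main activator of ORAI1 (plus strand, chr11:3854527-4093210), stood at 87.6, 94.1, 93.7 and 92.4 CPM in the 4 pH 7.4 libraries. It stood at 92.9, 95.8, 99.2 and 100.0 CPM at pH 6.9 and at 90.4, 93.5, 103.5 and 99.2 CPM at pH 6.4. The 3 media overlapped. The log2 change between pH 6.4 and pH 7.4 was 0.07, with a 95% interval from -0.08 to 0.22 and an edgeR adjusted p of 0.469. With scaling by library size alone its sign turned, to -0.01, still uncalled.

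The promoters of the paired sensors are shown because STIM2 was called and STIM1 was not. Each line is genomic sequence of GRCh38.p14 read 5′ to 3′ on the gene's own plus strand, from the RefSeq promoter table. The STIM1 line, chr11:3855564-3855663, is the 100 bases directly before a transcription start of the gene, 1 of 4 starts the table lists. The STIM2 line, chr4:26860591-26860690, spans bases 250 to 151 before the only start listed and lies outside annotated exons. Capitals mark GC boxes, written GGGCGG or CCGCCC by strand, and neighbouring boxes can overlap.
STIM1: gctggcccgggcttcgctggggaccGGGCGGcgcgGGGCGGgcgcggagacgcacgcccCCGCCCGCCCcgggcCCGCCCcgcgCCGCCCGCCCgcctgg
STIM2: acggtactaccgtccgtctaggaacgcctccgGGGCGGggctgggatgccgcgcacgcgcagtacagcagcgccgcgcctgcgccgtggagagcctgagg

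Over the full 250 bases before these starts, STIM1 held 8 GC boxes and STIM2 held 2. The count depends on the STIM1 start taken, since its other starts held 0, 2 and 8. A GC box was present in 42.64% of all 35116 promoters of that length in the table. STIM2 also held 1 CCAAT box (CCAAT), 140 bases before its start on the minus strand, a motif in 32.01% of promoters. Annotated exons cover 60% of the full STIM2 window, the part with the CCAAT box and the second GC box. The E-box CACGTG, the cAMP response element TGACGTCA, the AP-1 site TGACTCA and the TATA box TATAAA were searched for on both strands and had no match in these 2 windows. GC content was 77.2% in the STIM1 window and 75.2% in the STIM2 window, against a median of 58% over all promoters. A match describes letters and is not evidence of a bound factor.

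ORAI1, the pore subunit of the classical store-operated channel, had higher values in repeats 3 and 4 in every medium. It lies on the plus strand at chr12:121626550-121642677. Its level in repeats 1 to 4 was 27.6, 24.9, 36.2 and 36.6 CPM at pH 7.4. It was 23.7, 24.6, 33.7 and 38.9 CPM at pH 6.9 and 27.8, 30.9, 36.2 and 47.2 CPM at pH 6.4. No library of repeats 3 and 4 was as low as any of repeats 1 and 2 of its medium. The log2 change between pH 6.4 and pH 7.4 was 0.18, with a 95% interval from -0.23 to 0.59 and an edgeR adjusted p of 0.523. Within repeats 1 and 2 the change was 0.17 and within repeats 3 and 4 it was 0.20, neither called.

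ORAI3, a paralogue that can join ORAI1 in mixed channels, was low at pH 6.4 in all libraries but missed the threshold. It lies on the plus strand at chr16:30949066-30956461. It was at 15.2, 12.9, 12.2 and 10.4 CPM in repeats 1 to 4 at pH 7.4. At pH 6.9 it was at 12.5, 13.6, 12.2 and 8.24 CPM, and at pH 6.4 at 10.1, 9.21, 10.3 and 7.71 CPM. The highest pH 6.4 library lay just under the lowest pH 7.4 library, while pH 6.9 overlapped both. The log2 change between pH 6.4 and pH 7.4 was -0.44, with a 95% interval from -0.80 to -0.08 and an edgeR adjusted p of 0.0624. It was called without the pH 7.4 library of repeat 4 (-0.53, edgeR adjusted p = 0.041) and without the pH 6.9 library of repeat 4 (-0.44, edgeR adjusted p = 0.0357). It was also called by DESeq2 (-0.43, DESeq2 adjusted p = 0.0423) and with the pair of repeats as a term (-0.43, edgeR adjusted p = 0.0287). Exons of ORAI3 share 52.9% of their bases with AC135048.1, an annotated transcript on the same strand, so its counts are uncertain where reads could be given to either gene.

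STIM2, KCNN4 and ORAI3 were the 3 of 10 genes whose pH 6.4 and pH 7.4 libraries did not overlap, against 27.9% of all genes tested. Between pH 6.9 and pH 7.4 no member's libraries were separate, against 10.1% of all genes. Between pH 6.4 and pH 6.9 only those of STIM2 were, against 20.4%.

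Ratios within a library do not depend on its scaling. TPM (transcripts per-million) here divides by the summed length of a gene's annotated exons, so the size of a ratio depends on that annotation. In TPM, the ratio of STIM1 to STIM2 was 3.17, 2.93, 3.27 and 2.87 in repeats 1 to 4 at pH 7.4. It was 3.19, 3.31, 3.75 and 3.51 at pH 6.9 and 3.62, 3.96, 4.63 and 4.49 at pH 6.4. The pH 6.4 ratios were all above those of pH 7.4, with means of 4.18 ± 0.470 (SD, n = 4) and 3.06 ± 0.192 (SD, n = 4). The ratio of ORAI1 to ORAI3 was 4.60 ± 1.75 (SD, n = 4) at pH 6.4 and 2.99 ± 0.969 (SD, n = 4) at pH 7.4, and these media overlapped. The ratios are given as descriptions of the values above, with no test.

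**Figure D2:**
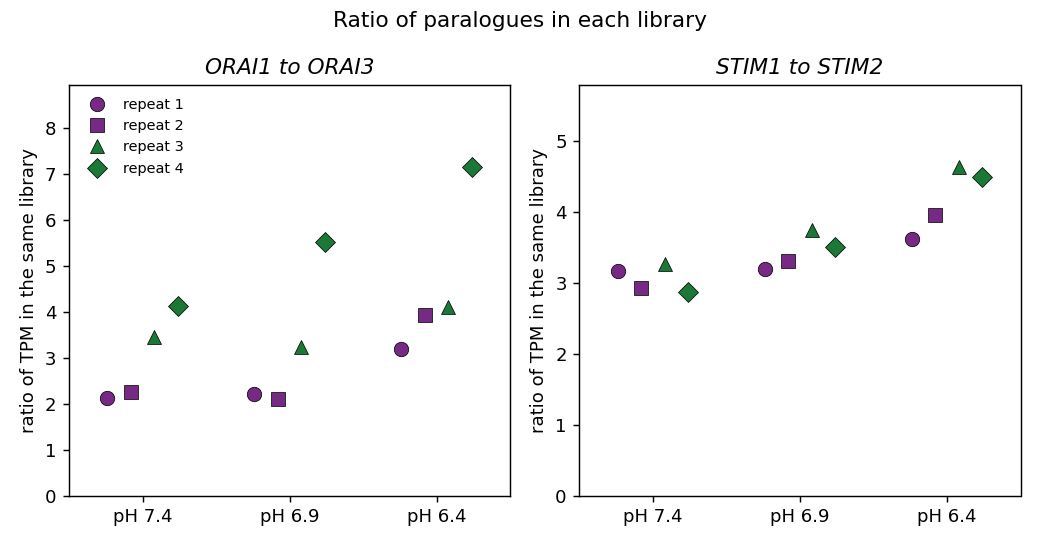
Ratio of TPM of ORAI1 to ORAI3 (left) and of STIM1 to STIM2 (right) in each library, by medium, with a marker for each repeat and purple for repeats 1 and 2, green for repeats 3 and 4. The STIM1 to STIM2 ratio lies between 3.62 and 4.63 at pH 6.4, above all pH 7.4 libraries.

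KCNN4, the intermediate-conductance calcium-activated potassium channel, was the member that rose. It lies on the minus strand at chr19:43766533-43781261 (GRCh38), and no other annotated gene overlaps it. Its level in repeats 1 to 4 was 51.2, 47.9, 38.7 and 39.3 CPM at pH 7.4. It was 52.8, 55.6, 45.9 and 47.6 CPM at pH 6.9 and 60.7, 61.2, 52.2 and 52.7 CPM at pH 6.4. The lowest pH 6.4 library lay just above the highest pH 7.4 library, and pH 6.9 overlapped both. Repeats 1 and 2 were above repeats 3 and 4 in every medium, the opposite order to ORAI1.

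The mean of KCNN4 was 44.3 ± 6.24 CPM at pH 7.4 (SD, n = 4), 50.5 ± 4.51 CPM at pH 6.9 (SD, n = 4) and 56.7 ± 4.90 CPM at pH 6.4 (SD, n = 4). It rose by 0.36 on the log2 scale between pH 7.4 and pH 6.4 (SE 0.108, edgeR adjusted p = 0.0226), a level 1.28-fold higher. Against pH 6.9 the change at pH 6.4 was 0.17, with a 95% interval from -0.06 to 0.40, and between pH 6.9 and pH 7.4 it was 0.19, from -0.04 to 0.42. Neither was called.

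The call of KCNN4 was lost without the pH 7.4 library of repeat 3 (0.30, edgeR adjusted p = 0.0726) or repeat 4 (0.30, edgeR adjusted p = 0.0692). It was also lost without the pH 6.4 library of repeat 1 (0.33, edgeR adjusted p = 0.0623) or repeat 2 (0.32, edgeR adjusted p = 0.0667). With scaling by library size alone the change was 0.27 (edgeR adjusted p = 0.0639), so that the members called were 0 higher and 2 lower. That scaling split the calls over the whole table into 2137 higher and 3159 lower, where TMM gave 2737 and 2584. Within repeats 1 and 2 the change was 0.30 (edgeR adjusted p = 0.0693) and within repeats 3 and 4 it was 0.44 (edgeR adjusted p = 0.0363). With the pair of repeats as a term, an alternative added after the split was seen, it was 0.36 (edgeR adjusted p = 0.000427).

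A short stretch of the KCNN4 promoter is shown because it holds the E-box CACGTG, in capitals, a palindrome found in 6.345% of all promoters. It is chr19:43781141-43781170 of GRCh38.p14 on the minus strand, 197 to 168 bases before the RefSeq start, and it lies inside an annotated exon of another transcript.
KCNN4: tgtgtctttatcCACGTGgatggacgtctc
The KCNN4 window also held 1 GC box. Of the 8 members in the promoter table, TRPM7 was the other with CACGTG, at 2 places, and PIEZO1 was the one with a TATAAA match, 27 bases before its start. ORAI1 and TRPV4 were the members not among the 8.

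PIEZO1, the stretch-activated channel (minus strand, chr16:88715338-88785220, GRCh38), had the highest level of the members. Its level in repeats 1 to 4 was 243, 236, 266 and 262 CPM at pH 7.4. It was 229.8, 228, 249.9 and 270.3 CPM at pH 6.9 and 214, 202, 250.3 and 242 CPM at pH 6.4. The media overlapped, and repeats 3 and 4 were above repeats 1 and 2 in each of them. The log2 change between pH 6.4 and pH 7.4 was -0.15, with a 95% interval from -0.33 to 0.04 and an edgeR adjusted p of 0.218. With the pair of repeats as a term the same change of -0.15 had an edgeR adjusted p of 0.0261 and was called. Within repeats 1 and 2 the change was -0.20 (edgeR adjusted p = 0.133) and within repeats 3 and 4 it was -0.09 (edgeR adjusted p = 0.506). Genes on the opposite strand cover 20.2% of the exon bases of PIEZO1, and whether the counting used strand is not stated in the labels.

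TRPM7, a channel fused to a kinase that carries magnesium and calcium, had means that differed by less than the spread between libraries. It lies on the minus strand at chr15:50552473-50686815. Its means were 63.1 ± 6.78 CPM at pH 7.4, 63.3 ± 3.68 CPM at pH 6.9 and 64.0 ± 5.77 CPM at pH 6.4 (SD, n = 4 each). Single libraries ran from 54.9 to 71.4 CPM at pH 7.4 and from 58.0 to 71.1 CPM at pH 6.4. The log2 change between them was 0.02, with a 95% interval from -0.18 to 0.22.

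TRPC1, a TRP channel that has been linked to store-operated and stretch-activated currents (plus strand, chr3:142724074-142807888), was at 17.7, 11.1, 12.4 and 10.6 CPM at pH 7.4. It was at 13.9, 14.2, 13.3 and 13.1 CPM at pH 6.9 and at 14.5, 13.1, 16.4 and 12.6 CPM at pH 6.4. The pH 7.4 library of repeat 1 was the highest of the 12. The log2 change between pH 6.4 and pH 7.4 was 0.13, with a 95% interval from -0.20 to 0.46 and an edgeR adjusted p of 0.579. Without the pH 7.4 library of repeat 1 it was 0.32 (edgeR adjusted p = 0.0571), still uncalled.

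TRPV4, a channel opened by swelling, warmth and lipids, and KCNMA1, the large-conductance potassium channel, were near the lower limit of detection. They lie on the minus strand at chr12:109783085-109833401 and chr10:76869601-77638369. TRPV4 had 0, 8, 7 and 13 counts in repeats 1 to 4 at pH 7.4. It had 7, 12, 11 and 12 counts at pH 6.9 and 4, 10, 22 and 12 counts at pH 6.4. In CPM, repeats 3 and 4 were above repeats 1 and 2 in every medium. KCNMA1 had 0, 26, 11 and 21 counts at pH 7.4, 27, 20, 10 and 13 at pH 6.9 and 10, 16, 11 and 9 at pH 6.4. Both genes were at 0 in the pH 7.4 library of repeat 1, the library with the fewest detected genes. There 0 counts allow up to 0.0871 CPM, the level of 3 counts, and this limit covers counting error only.

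The log2 change of TRPV4 between pH 6.4 and pH 7.4 was 0.68, with a 95% interval from -0.96 to 2.32, and it was 0.28 without the pH 7.4 library of repeat 1. For KCNMA1 it was -0.39, with a 95% interval from -1.85 to 1.07, and -0.80 without that library (edgeR adjusted p = 0.0839). In the remaining pH 7.4 libraries KCNMA1 was at 0.468 to 0.538 CPM, all above its pH 6.4 libraries, at 0.244 to 0.345 CPM. The counts of both genes were few, and neither gene was called with or without that library.

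**Figure D3:**
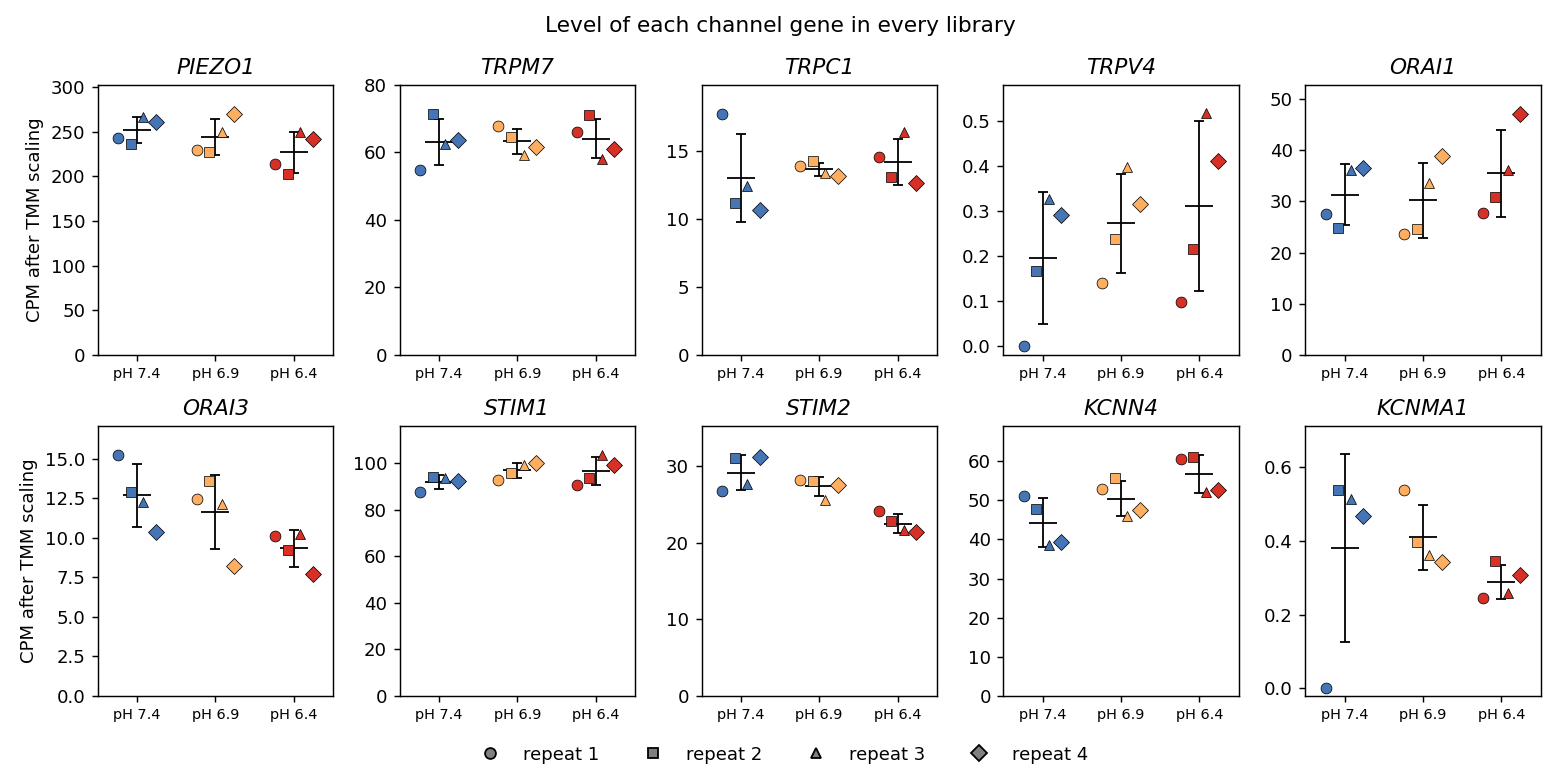
Level of each of the 10 channel genes in every library (y axis, CPM after TMM scaling, each panel on its own scale), by medium, with horizontal bars for the mean and whiskers for the SD of 4 libraries. STIM2 is lowest and KCNN4 highest at pH 6.4, and PIEZO1, ORAI1 and KCNN4 differ between repeats 1 and 2 (circles, squares) and repeats 3 and 4 (triangles, diamonds) in every medium.

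Levels between genes were compared per length, as TPM over all 12 libraries. PIEZO1 led with 78.9 ± 7.63 TPM (SD, n = 12). KCNN4 at 54.6 ± 7.43 TPM, ORAI1 at 52.6 ± 10.5 TPM and STIM1 at 49.3 ± 2.59 TPM came next. These 3 neighbours did not part beyond their spread: KCNN4 was above ORAI1 in 6 of 12 libraries and ORAI1 above STIM1 in 7. At pH 7.4 ORAI1 averaged 51.7 TPM and KCNN4 48.7 TPM, while at pH 6.4 they averaged 56.2 and 59.8 TPM. TRPM7 at 18.9 ± 1.58 TPM, ORAI3 at 15.7 ± 3.45 TPM, STIM2 at 14.1 ± 2.07 TPM and TRPC1 at 10.5 ± 1.63 TPM formed a lower set. TRPM7 was above ORAI3 in 11 libraries, ORAI3 above STIM2 in 9 and STIM2 above TRPC1 in 11. TRPV4 at 0.254 TPM and KCNMA1 at 0.0373 TPM closed the order. The length used sums all annotated exons, 3759 bases for TRPV4 and 35644 for KCNMA1, and their order depends on it. In mean CPM, KCNMA1 was above TRPV4 at pH 7.4 (0.379 against 0.195) and at pH 6.9 (0.409 against 0.273). At pH 6.4 KCNMA1 was below TRPV4, at 0.289 against 0.311 CPM.

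Several members differed between the pairs of repeats. The mean of ORAI1 in repeats 3 and 4 was above that in repeats 1 and 2 by 0.47 on the log2 scale at pH 7.4, by 0.59 at pH 6.9 and by 0.51 at pH 6.4. For PIEZO1 the same difference was 0.14, 0.18 and 0.24, and for KCNN4 it was -0.34, -0.21 and -0.22. The 2 sides did not overlap in any of the 3 media for these genes and TRPV4, 4 of the 10, against 19.1% of all genes tested. In single media they did not overlap for 53.6% of all genes at pH 7.4, 55.7% at pH 6.9 and 39.6% at pH 6.4, so separation within 1 medium is common here. These differences are descriptions. With the pair of repeats as a term, the members called in pH 6.4 against pH 7.4 were 4: PIEZO1 and ORAI3, lower, besides STIM2 and KCNN4. That fit called 6929 of all 17544 genes tested in this comparison, so the members' share was near that of all genes.

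The genes with the nearest profiles over the 12 libraries were found among the 10864 tested genes that averaged 5 CPM or more, by the root mean square difference of centred log2 CPM. The median distance was 0.276 for STIM2 and 0.277 for KCNN4. CCDC47, which encodes a calcium-binding protein of the endoplasmic reticulum membrane, was nearest to STIM2 at 0.0611, and UTP14A, a ribosome biogenesis factor, was next at 0.065. CCDC47 fell by 0.38 on the log2 scale (edgeR adjusted p = 0.000949) and UTP14A by 0.36 (edgeR adjusted p = 0.00573) between pH 7.4 and pH 6.4. ANAPC11, a subunit of the anaphase-promoting complex, and RPLP0, a ribosomal protein gene, were nearest to KCNN4, at 0.061 and 0.0658. Neither was called, with log2 changes of 0.305 and 0.231. As these neighbours were picked by their profile over the same 12 libraries, their changes follow from the choice.

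The rest of the calcium and magnesium machinery was read through 11 lists, which hold 176 genes besides the 10, of which 115 could be tested. Between pH 6.4 and pH 7.4, 20 of the 115 rose and 26 fell, 40% in all beside 30.3% of all genes tested. The same 30.3% is the background for the count of each list below. Their median log2 change was -0.11. Between pH 6.9 and pH 7.4 MCOLN1 alone was called, lower, and between pH 6.4 and pH 6.9 there were 10 higher and 10 lower.

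Among mechanosensitive channels, 3 of 8 tested were called. TMEM63B, a mechanically gated cation channel, rose from 91.7 ± 2.61 to 117 ± 16.7 CPM (SD, n = 4; log2 0.35, edgeR adjusted p = 0.00975). TMEM120A fell by 0.43 (edgeR adjusted p = 0.0131), and KCNK2, a stretch-activated potassium channel, fell by 1.28 from a level of 2.18 CPM.

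The TRP list had 1 gene higher and 4 lower of 16 tested. MCOLN1, the lysosomal calcium-release channel, fell from 36.4 to 16.5 CPM (log2 -1.14, edgeR adjusted p = 8.97e-05), and its endolysosomal relative MCOLN3 fell by 1.03. PKD2, a TRP channel of cilia and the endoplasmic reticulum, fell from 93.3 to 43.2 CPM (log2 -1.11, edgeR adjusted p = 0.000111). Its partner PKD1 rose by 0.45 and TRPM2 fell by 1.41 from 0.991 CPM. The members TRPM7, TRPC1 and TRPV4 were among the 11 genes of this list that were not called.

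In store-operated entry, 3 of 12 tested genes were called: STIM2 itself, ORAI2 and GRAMD2A. ORAI2, the third pore gene, fell by 0.20 from 62.2 to 54.2 CPM with an adjusted p of 0.0494 from edgeR, at the edge of the threshold. GRAMD2A, a protein of contacts between endoplasmic reticulum and plasma membrane, rose by 1.67 from 0.447 to 1.42 CPM. The median log2 change of the list was -0.20. Of calcium-activated potassium channel genes 5 were tested, and besides KCNN4 the subunit gene KCNMB3 was called, lower by 0.78, from 3.35 to 1.95 CPM. Other genes cover 37.9% of the KCNMB3 exon bases on the opposite strand and 9.62% on the same strand, so its count is uncertain. KCNMB4, the most abundant uncalled gene of that list outside the 10, had a log2 change of -0.69 with an edgeR adjusted p of 0.0787.

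Genes of calcium stores had 4 higher and 7 lower of 21 tested. The 11 calls became 6 without pH 7.4 repeat 2, and 7, 5 and 6 without pH 6.4 repeats 1, 2 and 4. TPCN1, an endolysosomal channel, rose from 49.7 to 84.8 CPM (log2 0.77, edgeR adjusted p = 0.000108), and ITPR2 rose by 0.49. The reticulum pump ATP2A2 rose by 0.27, with overlapping libraries, and ATP2A1 rose by 1.87 from a low level, 0.943 to 3.35 CPM. ITPR1, also an inositol trisphosphate receptor, fell by 0.56, and the mitochondrial uptake genes MICU2 and MCUR1 fell by 0.42 and 0.34. ATP2C1, TMCO1 and RYR3 fell as well. RYR3 was near the lower limit of detection, at 0.574 CPM at pH 7.4 and 0.0348 CPM at pH 6.4. The libraries of RYR3, ITPR1 and MICU2 overlapped between these media. Of 11 listed extrusion genes only 4 could be tested, and all 4 were called. The plasma membrane pumps ATP2B4 and ATP2B1 rose by 0.47 and 0.31, while SLC24A1 and ATP2B2 fell by 0.39 and 1.83. Without pH 6.4 repeat 4, or with only the 2 media compared, the list had 2 calls, and within repeats 3 and 4 it had 1.

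Downstream genes of calmodulin, calcineurin and NFAT had 4 higher and 4 lower of 24 tested, and 5 calls without pH 7.4 repeat 3 or without pH 6.4 repeat 1 or 2. The kinase genes CAMKK1, CAMKK2, CAMK2B and CAMK2D rose, by 0.83 and 0.76 for the first pair, while CAMK4 fell by 1.16 and PPP3CA, PPP3CB and CABIN1, of the calcineurin side, fell. Of 9 tested calpains, the calcium-activated proteases, CAPN7 rose by 0.38, CAPN10 rose by 0.34 and CAPN1 fell by 0.21. The count of calls moved with single libraries: it was 0 without repeat 1 of pH 7.4 or pH 6.9 or without repeat 1, 2 or 4 of pH 6.4, 4 without pH 6.4 repeat 3, and 1 without pH 7.4 repeat 2 or 3 or pH 6.9 repeat 3 or 4. Of 10 tested voltage-gated channels and P2X receptors, P2RX5 rose by 1.20, P2RX4 by 0.68 and CACNA1F by 2.04, and P2RX6 fell by 1.16. Exons of P2RX5 share 41.6% of their bases with the readthrough gene P2RX5-TAX1BP3, so its count is uncertain. Of 5 tested chloride channels and scramblases, ANO6 rose by 0.34 and ANO10 fell by 0.43, with 1 call without pH 7.4 repeat 2 or pH 6.4 repeat 4. Of 12 tested magnesium transporters, NIPA1 rose by 0.84, SLC41A2 and SLC41A3 fell by 0.38 and 0.31, and TRPM7 was among the uncalled. The calls of that list were 5 without pH 7.4 repeat 4 and 6 without pH 6.4 repeat 3.

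**Figure D4:**
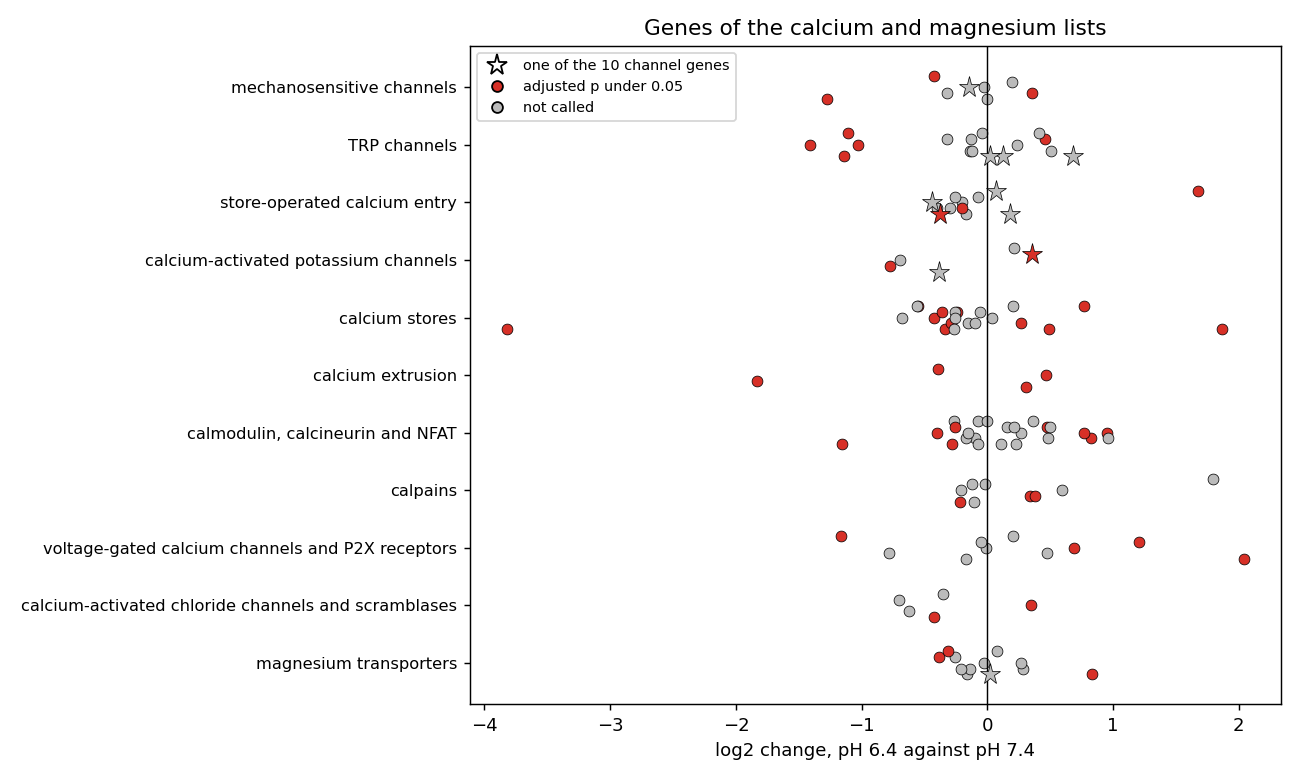
Log2 change between pH 6.4 and pH 7.4 (x axis) of every tested gene of the 11 calcium and magnesium lists (rows), with stars for the 10 channel genes and red for an adjusted p under 0.05. STIM2 and KCNN4 are the red stars. The largest falls among TRP channels, TRPM2 at -1.41, MCOLN1 at -1.14 and PKD2 at -1.11, lie farther from 0 than any star.

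Genes used as markers of other cell types moved with acidity too, in this cell line grown without other cells. The summed level of 6 fibroblast markers ran from 49.0 to 83.1 CPM at pH 7.4, from 36.0 to 61.2 CPM at pH 6.9 and from 25.6 to 38.5 CPM at pH 6.4. COL1A1, COL1A2, COL3A1 and LUM of that list fell between pH 7.4 and pH 6.4. Over all libraries COL1A2 averaged 30, COL1A1 13, LUM 4.2, COL3A1 0.979 and PDGFRA 0.136 CPM, and DCN averaged under 0.1 CPM. The 8 basal markers summed to 8054 to 8738 CPM at pH 7.4 and 9494 to 11880 CPM at pH 6.4, with 6 higher and CAV1 lower. Of the other marker genes ERBB3 and KDR rose, CDH1 and CD14 fell, CDH5 averaged under 0.1 CPM and CD3E was at 0 in every library. The endothelial genes PECAM1 and KDR averaged 7.54 and 5.56 CPM, and the leukocyte gene CD14 averaged 3.33 CPM. The summed luminal level was 271 to 362 CPM at pH 7.4 and 279 to 356 CPM at pH 6.4, the leukocyte level 4.64 to 7.05 and 2.23 to 3.63 CPM, and the endothelial level 9.19 to 17.3 and 13.4 to 17.7 CPM. The part of these shifts in the changes of STIM2 and KCNN4 was not tested.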

How the data were processed

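Raw read counts per gene, deposited by the authors as 1 table of 12 libraries, were used as given. Per the labels' protocols, libraries were made with a stranded poly(A) messenger RNA kit and sequenced on a NextSeq500. Per the submitters' processing notes, STAR, featureCounts and the builds GRCh38.p13 and hg38 were used. Whether strand was used in counting, and how reads with several mapping places were handled, is not given here. Rows that name no symbol held up to 0.424% of a library's counts. In none of the 66 pairs of libraries did fewer than 22391 genes differ in count.

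Counts were filtered with filterByExpr, scaled with TMM and fitted with edgeR 4.0.16 in R 4.3.3 as 1 term per medium over all 12 libraries, with 9 residual degrees of freedom. The robust quasi-likelihood test was used, with Benjamini-Hochberg adjustment over 17544 genes and a threshold of 0.05. The scripts were tested on simulated data. SE is the log2 change divided by the root of F, and 95% intervals use 14.6 degrees of freedom. The common biological coefficient of variation was 0.198. TPM used summed exon lengths of GENCODE 29, which matched 58396 of 60664 genes. Promoters came from RefSeq (GRCh38.p14). With 24 alternatives, limma 3.58.1 and DESeq2 1.42.0 included, the results were recomputed.

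The members and lists were chosen with earlier results of these data known. From each list up to 3 called genes of at least 5 CPM with the largest change were named, or else the most abundant uncalled gene. KCNK2, PKD1, TRPM2, GRAMD2A, KCNMB3, the ATP2A, ATP2C, ATP2B2, RYR3, TMCO1, MICU2 and MCUR1 genes, the CAMK2, PPP3C and CABIN1 genes, CACNA1F and P2RX6 were named after their values were seen. Repeat numbers were not taken to pair the libraries in the main fit, since the labels state no shared culture or day. In the data, of 12 pairs with the same number, 11 had a correlation of deviations over 0.1 and the lowest was 0.0798. The median was 0.263 for the same number and 0.193 for different numbers on the same side of the repeat split. It was -0.228 across the split. The main fit has no term for this shared structure.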

Additional observations from a re-analysis of the deposited data

Results flagged for a closer look

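KCNMA1 in the pH 7.4 library of repeat 1 was at 0 CPM, while the other 3 libraries of that medium were at 0.468 to 0.538 CPM. The gap is wider than Dixon's 95% limit for a group of 4. It was the only such value among the 30 groups of libraries examined, of which chance flags about 1 in 20. The same library had the fewest detected genes, 17841, and listed 40.2% of the low tested genes at 0. The part of that library's missing rare genes in the value was not tested.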

How the results depend on the processing

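Of 707 alternative values of the 10 genes' log2 changes, 628 kept their sign and side of the threshold, 10 became called, 25 lost their call and 44 changed sign without being called. STIM2 between pH 6.4 and pH 7.4 was called under 22 of 24 alternatives, at -0.46 to -0.29, and KCNN4 under 18, at 0.27 to 0.44. ORAI3 was called under 7 and PIEZO1 under 2. STIM2 between pH 6.4 and pH 6.9 was called under 7. TRPV4 and KCNMA1 could not be fitted under up to 3 alternatives. The cause of these differences was not tested, beyond fewer libraries or genes where an alternative removes them.

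No alternative called a member between pH 6.9 and pH 7.4. Between pH 6.4 and pH 6.9 the members called were 0 with relative log expression factors, with no low-count filter, with only the 2 media compared, within repeats 1 and 2, within repeats 3 and 4 and without the 2 libraries with the fewest detected genes. Between pH 6.4 and pH 7.4 they were 0 within repeats 1 and 2, 1 within repeats 3 and 4 and 4 with the pair of repeats as a term. The last of these fits called 6929 genes over the whole table. Leaving out 1 library at a time gave 1 to 3 members for pH 6.4 against pH 7.4 and 0 to 1 for pH 6.4 against pH 6.9.

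With the replicate block, 4 members were called between pH 6.4 and pH 7.4, PIEZO1 (-0.15, edgeR adjusted p = 0.0227) and ORAI3 (-0.44, edgeR adjusted p = 0.00687) besides STIM2 and KCNN4. The block gave 2 between pH 6.4 and pH 6.9, ORAI1 (0.24, edgeR adjusted p = 0.0403) and STIM2, and 0 between pH 6.9 and pH 7.4. Over the whole table it called 7290, 5456 and 947 genes in those comparisons. Of 12 libraries, 10 correlated best with one of their own number, a hint from the data and not from the design.

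Genes called over the whole table between pH 6.9 and pH 7.4 were 559 with DESeq2, 201 with no low-count filter, 250 with only the 2 media compared and 614 with the pair of repeats as a term. They were 7 within repeats 1 and 2, 0 within repeats 3 and 4 and 20 without the 2 libraries with the fewest detected genes. Between pH 6.4 and pH 6.9 they were 1906 within repeats 1 and 2, 0 within repeats 3 and 4 and 4818 with the pair of repeats as a term. Between pH 6.4 and pH 7.4 they were 1528 within repeats 3 and 4. Leaving out 1 library gave 39 to 306 between pH 6.9 and pH 7.4 and 1171 to 4944 between pH 6.4 and pH 6.9. List counts stayed within 1.5 times in 307 of 384 cases.

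The sign changes were all in uncalled values. For TRPM7 in pH 6.4 against pH 7.4 they were -0.0639 with library size only, -0.0750 within repeats 3 and 4, -0.0388 without the 2 libraries with the fewest detected genes, and -0.0404 to 0.0878 with 1 library left out. In pH 6.4 against pH 6.9 TRPM7 was at -0.0663 with library size only, -0.00963 within repeats 3 and 4 and -0.0370 to 0.0602 with 1 left out. In pH 6.9 against pH 7.4 it was at -0.00261 with at least 1 CPM in 4 libraries, -0.0654 within repeats 3 and 4, -0.0667 without the 2 libraries with the fewest detected genes and -0.0541 to 0.0743 with 1 left out. TRPC1 within repeats 1 and 2 was at -0.0515, -0.0280 and -0.0235 for pH 6.4 against pH 7.4, pH 6.9 against pH 7.4 and pH 6.4 against pH 6.9. In the last it was at -0.0197 with library size only, and with 1 library left out it was at -0.00833 to 0.266 and -0.0240 to 0.0997 in the last 2. STIM1 in pH 6.4 against pH 7.4 was at -0.00775 with library size only. In pH 6.4 against pH 6.9 it was at 0.00803 with relative log expression factors, 0.00818 with DESeq2, 0.00147 with no low-count filter, 0.000183 with only the 2 media compared, 0.0390 within repeats 3 and 4 and -0.0395 to 0.0269 with 1 left out. KCNMA1 in pH 6.4 against pH 7.4 was at 0.43 with limma voom and 0.0991 within repeats 1 and 2. In pH 6.9 against pH 7.4 it was at -0.47 within repeats 3 and 4, -0.27 without the 2 libraries with the fewest detected genes and -0.29 to 0.36 with 1 left out. With 1 left out, ORAI1 was at -0.20 to 0.0523 and ORAI3 at -0.21 to 0.00855 in pH 6.9 against pH 7.4, and TRPV4 at -0.18 to 0.50 in pH 6.4 against pH 6.9.

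TRPV4 and KCNMA1 had 0 to 27 counts per library, and their 95% intervals reached up to 2.32 on the log2 scale. Both were at 0 in the pH 7.4 library of repeat 1, without which pH 6.4 against pH 7.4 gave 0.28 and -0.80, both uncalled.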
